A study of Mus musculus with 18 samples.

Results

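Histone genes made up 44 of the 12960 genes (0.34%) detected in mouse spleen cells at 3 stages of the B lineage, naive, activated and plasma. They were chosen by symbol: Hist1h to Hist4h genes, H2af and H3f3 genes, H1f0 and H1fx. Of the 44, 36 were clustered genes with a Hist1, Hist2, Hist3 or Hist4 symbol (5 for H1, 13 for H2A, 9 for H2B, 4 for H3 and 5 for H4), and 8 were variants (H1f0, H2afx, H2afj, H2afy, H2afz, H2afv, H3f3a and H3f3b). H1fx had no row in the table used. RNA was sequenced from 18 libraries, 3 in each of 6 groups, and the series compares control mice (Ctrl) with mice built to lose the methyltransferase G9a (KO) at each stage. Ctrl mice carried 1 copy of a Cre recombinase allele alone, and KO mice carried G9afl/fl with the same Cre allele, so that all groups share it. Activated B cells (B220+GL7+) and plasma cells (CD138+ with low or intermediate B220) were sorted 72 h after 50 µg lipopolysaccharide (LPS) in 100 µl was injected into the tail vein. Naive B cells of both genotypes came from uninfected mice and were enriched with CD43 beads, so that stage, LPS and isolation method changed together. The labels give no ages and do not say that replicates were separate animals, so p-values measure only the spread between these samples.

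Histones are the proteins that DNA is wound around. Clustered, replication-dependent histone genes lie side by side, have no introns as a rule, and are transcribed mainly in S phase, when new chromatin must be filled. Their mRNAs end in a stem-loop that the protein SLBP binds, in place of a poly(A) tail. Variant genes lie apart, give polyadenylated mRNAs and are made throughout the cell cycle, so that they can replace histones in cells that do not divide. G9a methylates lysine 9 of histone H3. Each library held 1000 cells and was made with SMART-seq v4, which primes on poly(A) tails. The levels below are therefore those of histone RNA captured in this way, and the share of clustered histone mRNA that was captured was not measured.

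The clustered members sat on 2 chromosomes, 31 on chromosome 13 and 5 on chromosome 3 (RefSeq, GRCm38.p6). On chromosome 13, Hist1h2al lay apart, from base 51200084. The others there lay between bases 21716412 and 23764412. The stem-loop is shown first because it is the feature that sets the clustered mRNAs apart. In GENCODE M21 transcripts on GRCm38, 28 clustered members had an annotated 3′ UTR, and 24 of these held the stem-loop. Of the 8 variants 1 did, H2afx, which is known to make both kinds of mRNA. Of 12477 detected genes with a transcript, 1.47% matched the same pattern anywhere in a transcript. Capitals mark the stem-loop and lower case the bases on each side.
Hist1h2bg: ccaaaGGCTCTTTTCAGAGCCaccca
Hist2h2aa2: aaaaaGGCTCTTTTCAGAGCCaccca
Hist1h3c: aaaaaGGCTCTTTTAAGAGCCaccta
Hist2h2ac: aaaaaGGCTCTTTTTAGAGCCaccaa
Hist1h4m: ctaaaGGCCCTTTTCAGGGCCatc
Hist1h4i: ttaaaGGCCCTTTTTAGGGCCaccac
H2afx: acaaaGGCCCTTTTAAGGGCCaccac
The form of Hist1h2bg and Hist2h2aa2 was shared by 14 members of the H1, H2A, H2B and H3 classes. That of Hist1h4m was shared by 4 H4 genes, and that of Hist1h3c by 4 H2B and H3 genes. Hist2h2ac and Hist1h4i each had a form of their own. Of the 24 transcripts with a stem-loop, 14 ran more than 50 bases past it, and 8 of those 14 carried a poly(A) signal (AATAAA or ATTAAA) in the added stretch. Hist1h1a, Hist1h2bc, Hist1h2br and Hist2h2be had a 3′ UTR with no match.

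Promoter windows from 250 bases before to 50 bases after the start (RefSeq, GRCm38.p6) were found for 33 clustered members and 7 variants. Motifs were searched on both strands, and the ends of different motifs may overlap. The octamer ATTTGCAT, which POU factors such as Oct1 bind, was in 10 of 33 clustered promoters (30.3%, exact 95% interval 15.6 to 48.7%), in 1 of 7 variant promoters, and in 1.77% of the windows of all 10353 detected genes with one. It was in 5 of 7 H2B and 5 of 12 H2A promoters, and in none of the 14 H1, H3 and H4 windows. The 10 windows held 8 distinct octamers, because 2 lay between divergent gene pairs and fell into both windows. CCAAT was in 90.9% of clustered windows, 71.4% of variant windows and 43.4% of all windows, and TATAAA was in 57.6%, 14.3% and 9.69%. A match describes the letters only and is not a binding site. The 3 windows below belong to genes or gene pairs called different between genotypes. Capitals mark octamer, CCAAT and TATAAA matches, and each window is printed 5′ to 3′ on its gene's strand.
Hist1h2bg, chr13:23571150-23571449, forward strand: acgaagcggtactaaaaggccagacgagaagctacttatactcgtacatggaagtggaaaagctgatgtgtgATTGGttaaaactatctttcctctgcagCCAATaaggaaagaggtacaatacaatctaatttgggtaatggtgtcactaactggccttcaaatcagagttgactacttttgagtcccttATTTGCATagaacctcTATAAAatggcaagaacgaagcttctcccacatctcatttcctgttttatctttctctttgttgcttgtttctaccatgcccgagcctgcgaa
Hist1h2ac, chr13:23683910-23684209, reverse strand: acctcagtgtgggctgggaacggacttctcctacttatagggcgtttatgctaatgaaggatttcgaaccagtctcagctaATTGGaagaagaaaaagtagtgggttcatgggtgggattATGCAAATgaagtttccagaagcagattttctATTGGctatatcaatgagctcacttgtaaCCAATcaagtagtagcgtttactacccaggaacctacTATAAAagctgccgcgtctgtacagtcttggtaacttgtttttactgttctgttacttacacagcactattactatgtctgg
Hist2h2aa2, chr3:96240325-96240624, reverse strand: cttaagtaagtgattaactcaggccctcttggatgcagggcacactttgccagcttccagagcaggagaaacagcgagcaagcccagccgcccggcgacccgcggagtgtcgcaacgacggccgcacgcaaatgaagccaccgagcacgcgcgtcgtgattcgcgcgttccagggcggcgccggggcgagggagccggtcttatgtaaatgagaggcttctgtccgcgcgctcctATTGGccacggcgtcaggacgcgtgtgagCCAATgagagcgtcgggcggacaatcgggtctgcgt
The first window also holds the start of Hist1h2ae, 180 bases away on the other strand. The second holds the start of Hist1h2bc, 240 bases from that of Hist1h2ac. The 5 divergent H2A and H2B pairs had starts 178 to 249 bases apart. The octamer lay 59 bases before the start of Hist1h2bg and 128 before that of Hist1h2ae, and it was the same octamer.

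**Figure D1:**
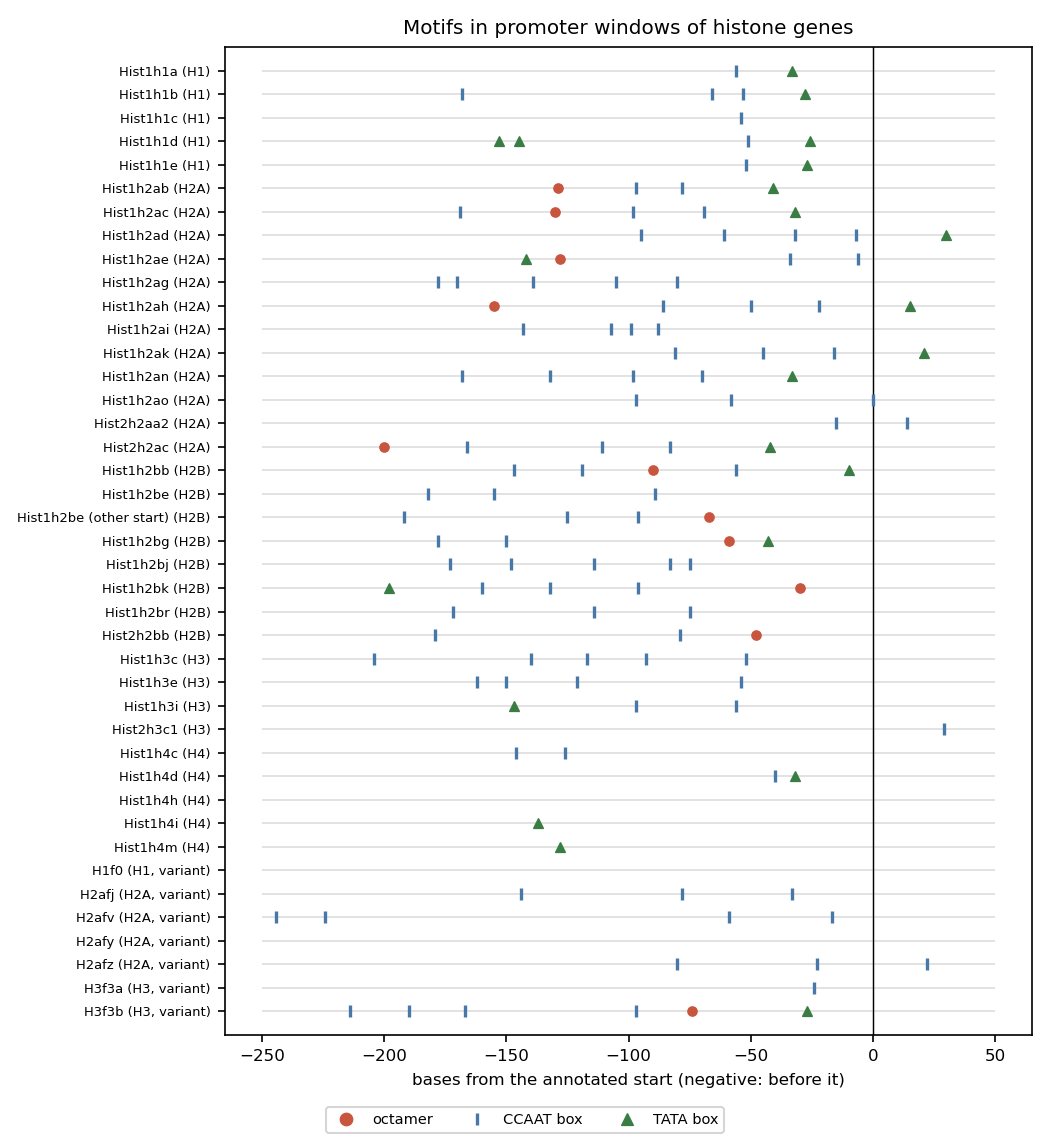
Positions of the octamer, CCAAT box and TATA box in each promoter window; the x axis is distance in bases from the annotated start, and each row is one window. Octamers are seen in H2A and H2B rows and in H3f3b, and in no H1, H3 or H4 row of the clustered genes.

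Facts of the libraries bear on all that follows. Ehmt2, which encodes G9a, was not called different between genotypes in any cell type by limma (log2 changes -0.16, 0.02 and -0.3, adjusted p = 0.695, 1 and 1 in naive, activated and plasma cells). Its means ± SD (n = 3) in scaled RPKM were 19.2 ± 7.25 (Ctrl) and 16.9 ± 5.35 (KO) in naive cells, 22.1 ± 3.12 (Ctrl) and 22.3 ± 0.81 (KO) in activated cells, 17.1 ± 0.865 in plasma Ctrl and 13.7 ± 1.27 in plasma KO. A whole-gene value does not check the deletion. Depth was estimated at 2.67 to 10.82 M reads in the 6 activated and 5.16 to 6.9 M in the 6 plasma libraries. In the naive libraries it was 1.63 to 3.74 M, with no estimate for 2 of the 6, and a value of 1 RPKM in a gene of 500 bases then stands for 0.82 to 1.87 reads. The median SD of a member was 0.482 (Ctrl) and 0.432 (KO) in naive cells and 0.177 to 0.222 in the other groups, on the log2 scale. Olfactory receptor genes, which B cells are not known to use, had a median of 1.68 to 6.96 scaled RPKM in naive libraries and 0 to 0.944 in the others. The median clustered histone gene was at 4.64 to 6.56 in naive libraries. That is close to the olfactory receptor median except in naive KO replicate 3 (6.56 against 1.68). The 6 B cell markers were found in all groups, with sums of 4420 to 5070 in naive, 2430 to 3730 in activated and 968 to 1670 in plasma libraries. Plasma cell markers (6 of 6) summed to 7770 to 9440 in plasma, 334 to 839 in activated and 256 to 323 in naive libraries. Of the markers of other cells, erythroid and platelet markers were highest in naive libraries. Erythroid markers (2 of 6 in the table) summed to 265 to 491 there, against 0 to 45 elsewhere. Platelet markers (3 of 4) summed to 40.6 to 104, against 0.136 to 3.32. Monocyte and macrophage markers (4 of 6) overlapped, with 28.6 to 81.1 in naive KO and 12.1 to 41.6 in activated KO. The NK cell marker (1 of 3) did too, with 1.24 to 5.88 and 2.84 to 4.45. The part of these markers in the results below was not tested.

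Many members share sequence, and how the authors counted reads that match several genes is not stated in the labels. Of the clustered members 12 had a coding sequence at least 98% identical to another member's. In 28 clustered members and 2 variants (H2afz and H3f3a), at least 50% of the 50-base stretches of the coding sequence also occurred in another gene's transcript. The level of such a gene is uncertain, as reads may have been divided between copies. Hist1h1a, Hist1h1b, Hist2h2be, H1f0, H2afy and H2afv had no shared stretch.

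Clustered genes as a whole were captured at low levels in naive cells and at higher levels after activation. Levels are RPKM, reads relative to gene length and library total, divided by one factor per library. The 36 clustered genes summed to 509 ± 68.8 in naive Ctrl, 1490 ± 180 in activated Ctrl and 1880 ± 226 in plasma Ctrl (mean ± SD, n = 3 libraries). The 8 variants summed to 1850 ± 166, 1590 ± 13.6 and 1430 ± 134, a sum of which H3f3a and H3f3b made up most, while single variants differed in direction. The ratio of the clustered to the variant sum was 0.324, 0.226 and 0.281 in the 3 naive Ctrl libraries, 0.867, 1.06 and 0.897 in activated Ctrl, and 1.43, 1.28 and 1.23 in plasma Ctrl. The ranges of the 3 stages did not overlap. Without the 12 near-identical members the clustered sums were 342.6, 626.6 and 882.2, a smaller step from naive to activated cells.

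**Figure D2:**
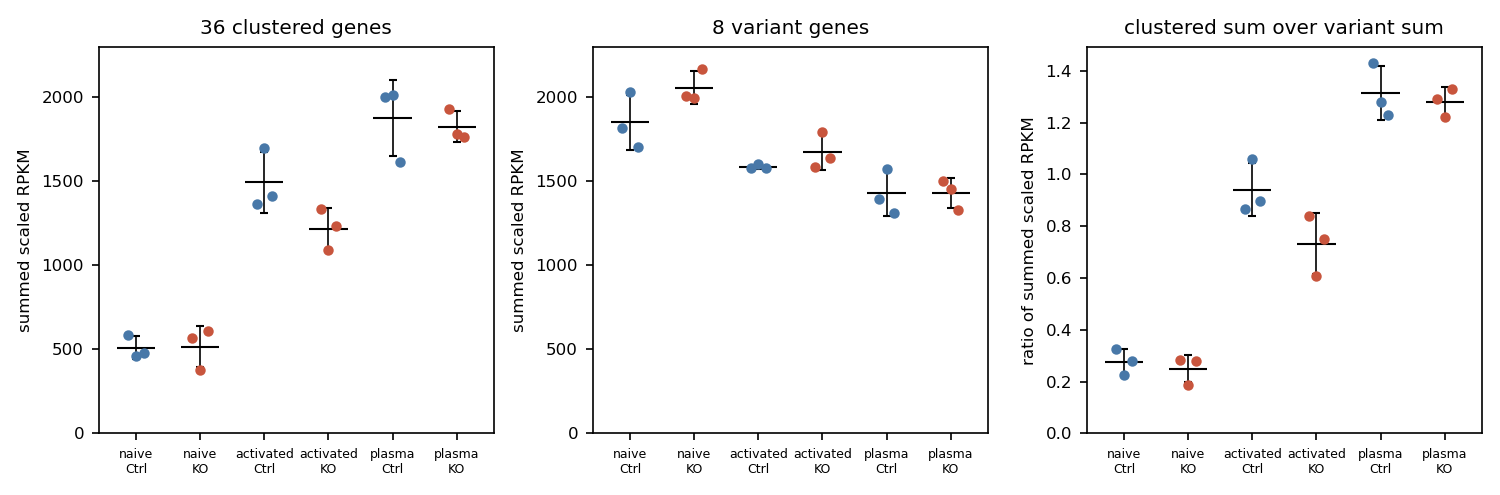
Summed level of the 36 clustered genes, of the 8 variant genes (scaled RPKM) and the ratio of both sums, for each of the 6 groups. Points are libraries, lines are means and bars SDs (n = 3). Naive libraries are low in the clustered sum, and activated KO libraries lie below activated Ctrl libraries.

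H2A genes gave most of the clustered sum, 895 ± 132 of 1490 in activated Ctrl, followed by H4 (242 ± 26.5), H1 (231 ± 16.7), H2B (93.5 ± 5.72) and H3 (33.4 ± 4.28). These comparisons between genes rest on the authors' gene lengths, which the labels do not state. Hist1h2ao was the most abundant clustered gene, at 474.5, 539.8 and 465.8 scaled RPKM in the activated Ctrl libraries. Hist1h4d led the H4 genes with 155.5, 195.7 and 175.5. Among variants H3f3b and H3f3a, which encode the same replacement form of H3, were the most abundant, at 523.2, 543.1 and 497.8 and at 412.3, 388.6 and 435.3. Clustered members whose transcript ran over 50 bases past the stem-loop (14) had a median of 28.5 in activated Ctrl, and those whose transcript ended within 50 bases of it (10) a median of 14.2.

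From naive to activated Ctrl cells, 24 of the 35 tested clustered members rose and 4 fell (limma over all 18 libraries, Benjamini-Hochberg adjusted p under 0.05). Over all 12782 genes tested, 19% rose and 39.4% fell. The median log2 change, taken on log2 of scaled RPKM + 1, was 1.70 for clustered members and -0.29 for all genes. Hist1h2be did not reach the test's minimum of 1 scaled RPKM in any group. Since the median clustered gene was close to the olfactory receptor median in naive libraries, its naive level is uncertain. Without the 28 clustered members and 2 variants that share most 50-base stretches, 7 members were higher and 4 lower.

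Linker histone Hist1h1b measured 9.61, 4.49 and 7.06 in naive Ctrl and 96.2, 51.4 and 98.8 in activated Ctrl. Every activated library lay above every naive one, and the log2 change was 3.36 (SE 0.28, adjusted p = 3.5e-08). Hist1h1a, also an H1 gene without shared coding sequence, went from 0.641, 1.28 and 2.05 to 7.14, 11.8 and 9.79 (log2 change 2.21, SE 0.33, adjusted p = 2.8e-05). Hist1h1e, another H1 gene, rose by 0.79 on the log2 scale (adjusted p = 0.007). That call was lost without activated Ctrl replicate 3 and with library weights. Of the 5 H1 genes 4 rose, the exception being Hist1h1c.

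Of the 13 H2A genes 11 rose, with a class median of 2.58. Hist1h2ag, a core H2A gene, was at 0, 1.01 and 0.539 in naive Ctrl and at 11.9, 14.2 and 12.5 in activated Ctrl (log2 change 3.25, SE 0.33). Hist1h2ao went from 87.2, 71.2 and 87.7 to the levels above, a log2 change of 2.58 with the smallest SE of the class, 0.14. Hist1h2ac (2.96) and Hist1h2ae (2.97) changed by similar amounts, each with groups that did not overlap. Among H2B, H3 and H4 genes, 4 of 8, 2 of 4 and 3 of 5 rose. Hist1h3i, an H3 gene, went from 7.9, 1.0 and 2.1 to 18.3, 22.1 and 20.5 (2.48, SE 0.38), while Hist1h3e overlapped between stages (10.1, 8.1 and 1.1 against 5.4, 6.4 and 4.1).

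Of the 4 clustered members that fell, 2 encode H2A and 2 H2B. Hist2h2aa2, an H2A gene of the chromosome 3 cluster, measured 75.2, 98.1 and 75.6 in naive Ctrl and 17.8, 27.0 and 27.5 in activated Ctrl. Its naive libraries were all higher, with a log2 change of -1.76 (SE 0.23, adjusted p = 6.6e-06). Hist1h2bc, an H2B gene, fell from 16.3, 21.0 and 11.9 to 9.82, 11.8 and 8.51 (log2 change -0.63, SE 0.20, adjusted p = 0.011), a call lost without activated Ctrl replicate 4 or naive Ctrl replicate 2 and in the fit of the 6 libraries compared (adjusted p over alternatives 0.00203 to 0.073). Hist2h2be fell from 6.08, 6.41 and 7.45 to 3.04, 2.25 and 3.41 (-0.98), a call lost with library weights (adjusted p = 0.105). Hist1h2al, classed in RefSeq as a transcribed pseudogene, fell by 1.17 on the log2 scale, which quantile normalization did not call (adjusted p = 0.559). Hist1h2bc and Hist2h2be are among the 4 members whose 3′ UTR held no stem-loop match. Of the others, Hist1h1a rose and Hist1h2br was not called, while Hist2h2aa2, which fell most, has the stem-loop.

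The 8 variants divided. H1f0, H2afx and H2afz rose, H2afj, H3f3a and H3f3b fell, and H2afy and H2afv were not called. H2afx, whose product is phosphorylated at DNA breaks, went from 44.2, 30.1 and 36.9 to 145.2, 156.7 and 141.1 (log2 change 1.98, SE 0.17, adjusted p = 5.3e-08). H2afz, which encodes the promoter variant H2A.Z, went from 102.5, 101.1 and 78.4 to 334.2, 352.3 and 339.1 (1.86, SE 0.11, adjusted p = 3.9e-10). Both of these variants belong to the H2A family, and neither had overlapping groups. H3f3a fell from 756.2, 732.7 and 616.7 to 412.3, 388.6 and 435.3 (-0.76, SE 0.09, adjusted p = 1.8e-06), and H3f3b by a like amount (-0.72). H2afj fell from 59.5, 45.4 and 62.7 to 41.0, 37.6 and 40.5 (-0.47, adjusted p = 0.012). Its call was lost without naive Ctrl replicate 3 and with library weights (range over alternatives 0.0025 to 0.131). H2afv encodes a second H2A.Z protein, and its values did not follow those of H2afz, with 43.7, 55.3 and 52.6 in naive and 58.8, 55.1 and 62.0 in activated Ctrl.

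**Figure D3:**
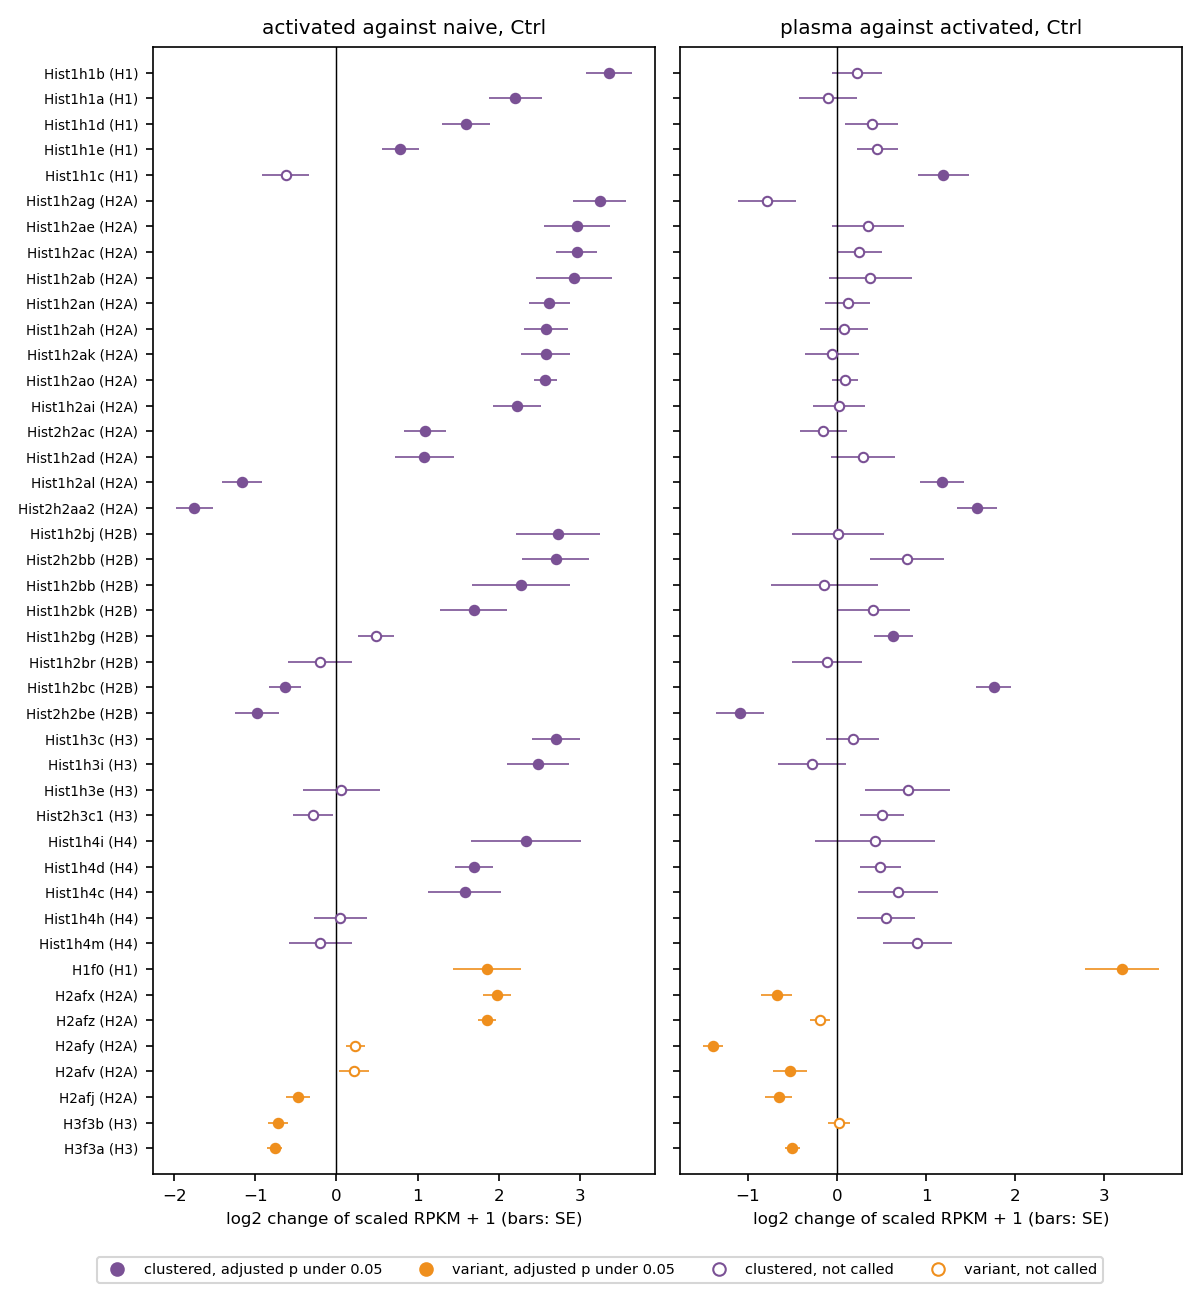
Log2 change of each of the 43 tested members from naive to activated Ctrl cells and from activated to plasma Ctrl cells (x axis, bars are SE), by class. Filled points passed limma at an adjusted p under 0.05. Most clustered genes lie right of 0 in the first step, while variants lie on both sides, and H1f0 stands apart in the second step.

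From activated to plasma Ctrl cells, 5 of 35 clustered members rose and 1 fell, and 1 of 8 variants rose and 5 fell, against 16.1% of all genes higher and 16.8% lower. The clustered median was 0.35 and the variant median -0.52. In a fit of the 6 libraries compared alone, 16 clustered members were called higher and 3 lower, where 30.6% of 10201 genes were higher and 33.3% lower. With deposited RPKM or quantile normalization the split over all members was 5 higher and 8 lower, against 6 and 6.

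Hist1h2bc went from 9.82, 11.8 and 8.51 in activated Ctrl to 34.9, 38.6 and 35.1 in plasma Ctrl, with no overlap (log2 change 1.76, SE 0.20, adjusted p = 9.0e-07). Hist2h2aa2 went from 17.8, 27.0 and 27.5 to 71.2, 83.8 and 63.8 (1.57, SE 0.23, adjusted p = 2.0e-05). Hist1h1c, an H1 gene known for expression outside S phase, went from 26.1, 39.7 and 30.8 to 73.8, 78.8 and 69.5 (1.196, SE 0.29, adjusted p = 0.003). Hist1h2al and Hist1h2bg also rose (1.18 and 0.63). The call of Hist1h2bg (adjusted p = 0.032) was lost without any single activated Ctrl library, without plasma Ctrl replicate 1 or 3, with deposited RPKM and with quantile normalization (up to 0.161). This step and the one before share the activated Ctrl libraries, so the changes of one are not independent of the other.

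H1f0, the linker variant known to accumulate in differentiated cells, changed most of all members. It measured 1.46, 3.32 and 4.23 in naive Ctrl, 12.4, 16.9 and 10.0 in activated Ctrl, and 112.3, 169.6 and 106.8 in plasma Ctrl. The lowest plasma library lay above the highest activated one, and the log2 change was 3.21 (SE 0.42, adjusted p = 4.9e-06). H2afy, which encodes macroH2A, fell from 50.2, 50.9 and 51.9 to 19.4, 19.5 and 17.5 (-1.39, SE 0.12, adjusted p = 1.4e-08). H2afx, H2afj, H2afv and H3f3a fell by 0.68, 0.66, 0.53 and 0.50 on the log2 scale, where the call of H2afv was lost without any single activated Ctrl library or plasma Ctrl replicate 1 or 4 (adjusted p up to 0.148). H2afz and H3f3b were not called in this step (-0.19 and 0.02). Hist2h2be was the clustered member that fell, to 1.40, 0.322 and 0.899, low levels around the test's minimum of 1 scaled RPKM.

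From naive to plasma Ctrl cells, 26 of 35 clustered members were higher and 1 lower, and 3 of 8 variants were higher and 4 lower. Over all genes 24.3% were higher and 44.4% lower. Hist1h1b again had the largest clustered change (log2 3.59, SE 0.28), followed by Hist2h2bb (3.49), Hist1h2ae (3.32) and Hist1h2ab (3.3). Hist2h2be was the lower member (-2.07). The order of H1f0 over stages was naive, activated, plasma, each step apart in Ctrl, while H3f3a had the reverse order.

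The genotype comparison asks whether histone RNA differed in KO mice. In activated B cells most clustered genes had lower values in KO libraries, although few passed the test over 18 libraries. All 3 KO libraries lay below all 3 Ctrl libraries in 19 of 35 clustered members, and in none did all lie above. Over all genes the shares were 16% and 15.3%. The 19 include Hist1h2al (means 0.629 in Ctrl and 0.269 in KO) and Hist1h2br (1.05 and 0.528). Both had low levels around the test's minimum of 1 scaled RPKM. The clustered sum was 1367, 1700 and 1415 in Ctrl and 1333, 1089 and 1232 in KO, with no overlap (1490 ± 180 and 1220 ± 123). Of the 35 members, 29 had a log2 change below 0, with a median of -0.40, against 6766 of 12782 genes and a median of -0.02. Limma over all 18 libraries called 2 clustered members lower and 0 higher, and 0 variants, where 1.36% of all genes were lower and 0.43% higher.

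That test takes its spread from all groups, and the naive libraries had the widest. In a fit of the 6 activated libraries alone, 14 of 34 clustered members were called lower and 0 higher, and of the 8 variants 1 was higher and 1 lower. The background of that fit was 9.25% lower and 8.22% higher over 10067 genes. Both members called over 18 libraries were among the 14. Each of the 14 shares at least 50% of its coding 50-base stretches with other genes. Among members that do not, 0 were called over 18 libraries, and no clustered one was called over the 6. Without the naive libraries, 19 members were lower and 1 higher, and the share over all genes was not taken for that fit. KO replicate 3 had the least depth of the activated libraries (2.67 M reads) and the lowest clustered sum, and without it the KO mean was 1283. Marker sums also differed between these groups: plasma cell markers were 747 to 839 in Ctrl and 334 to 432 in KO, B cell markers 3290 to 3730 and 2430 to 2580, erythroid markers 3.99 to 4.94 and 14.5 to 22.8, T cell markers (3 of 7 in the table) 6.34 to 7.34 and 10.7 to 12.7, NK cell markers (1 of 3) 1.1 to 1.18 and 2.84 to 4.45, platelet markers 1.23 to 1.36 and 0.136 to 0.322, and naive B cell markers (5 of 5) 649 to 760 and 638 to 644. Their part in the result was not tested. Fewer cells of a type and less RNA per cell cannot be told apart in bulk samples.

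Hist1h2bg, the H2B gene divergent from Hist1h2ae, had the largest difference. Its 3 activated Ctrl libraries held 28.4, 28.5 and 27.3 scaled RPKM, and the 3 KO libraries 11.6, 7.71 and 9.93. The groups were far apart, and the log2 change was -1.45 (SE 0.22, adjusted p = 0.001). The call held in each alternative fit run, with adjusted p from 7.0e-09 to 0.012. Of the coding 50-base stretches of Hist1h2bg, 85.2% occur in other genes. Its neighbour Hist1h2ae was at 81.0, 171.6 and 75.3 in Ctrl and 74.1, 44.9 and 51.6 in KO (-0.86, adjusted p = 0.486).

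Hist2h2aa2 was at 17.8, 27.0 and 27.5 in activated Ctrl and 13.6, 9.01 and 10.9 in KO, again without overlap (-1.04, SE 0.23, adjusted p = 0.024). The call was lost without Ctrl replicate 3 or 4 or KO replicate 3 or 4, and the adjusted p over alternatives ran from 0.000263 to 0.157. All of its coding 50-base stretches occur in other genes, the limit named above.

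H4 genes were low as a class. All 5 had KO libraries below Ctrl libraries without overlap, with a class median of -0.72, and the H4 sum was 242 ± 26.5 in Ctrl and 174 ± 30 in KO. Hist1h4m measured 12.4, 18.4 and 15.6 in Ctrl and 7.80, 3.53 and 6.44 in KO (-1.29, SE 0.39, adjusted p = 0.123 over 18 libraries and 0.00337 over the 6). H2B genes showed the same pattern in 7 of 8, with sums of 93.5 ± 5.72 and 57.4 ± 1.88. Among H2A genes it was seen in 7 of 13. These counts include the low genes Hist1h2br (H2B) and Hist1h2al (H2A). The next values, like those of Hist1h1a above, belong to genes picked after their values were seen. Hist1h2ag measured 11.9, 14.2 and 12.5 in Ctrl and 5.61, 3.03 and 7.37 in KO (-1.19, SE 0.33, adjusted p = 0.079 over 18 libraries and 0.00495 over the 6).

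H1 genes did not follow as a class, with 3 above 0 and 2 below. The 2 below were Hist1h1a (-0.695, adjusted p = 0.491) and Hist1h1c (-0.455, adjusted p = 0.747, both by limma over 18 libraries). None of the 5 had separated groups, and the H1 sums were 231 ± 16.7 in Ctrl and 231 ± 24.8 in KO. Hist1h1b measured 96.2, 51.4 and 98.8 in Ctrl and 89.8, 78.9 and 107.5 in KO. Its log2 change was 0.21 (SE 0.28, adjusted p = 1.000). None of the 4 H3 genes had separated groups either, with a class median of -0.53. The difference between classes was not tested. Class and shared sequence also went largely together. The 5 H1 genes had 0 to 26.4% of their coding 50-base stretches in other genes. Most H2A, H2B, H3 and H4 genes had at least 50%. The exceptions with a value, Hist1h4d (42.2%) and Hist2h2be (0%), had KO libraries below Ctrl libraries without overlap. The part of shared sequence in the class pattern was not tested.

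Variants in activated cells showed no common direction. H2afz was higher in KO, with 334.2, 352.3 and 339.1 in Ctrl and 443.8, 479.3 and 448.2 in KO. The groups did not overlap and the log2 change was 0.42 (SE 0.11), with an adjusted p of 0.063 over 18 libraries and 0.00335 over the 6. H3f3a was lower without overlap, at 412.3, 388.6 and 435.3 against 328.7, 385.1 and 338.2 (-0.23, adjusted p = 0.282). H1f0 was at 12.4, 16.9 and 10.0 in Ctrl and 6.79, 9.22 and 9.08 in KO (-0.57, adjusted p = 0.849 over 18 libraries and 0.0414 over the 6). The variant sums overlapped (1590 ± 13.6 and 1670 ± 108), and 2 of the 8 variants had an unadjusted p under 0.05, as did 1288 of 12782 genes.

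The sequence features shown above can be set beside the activated KO values, as a description. The 10 members whose transcript ends within 50 bases of the stem-loop had a median log2 change of -0.88, and 10 of 10 were below 0. The 13 tested members whose transcript runs further had a median of -0.46, with 10 below 0. Members with an octamer (9 tested) and without one (23) had medians of -0.47 and -0.42. These groups differ in class and in level, and they were not tested against each other.

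**Figure D4:**
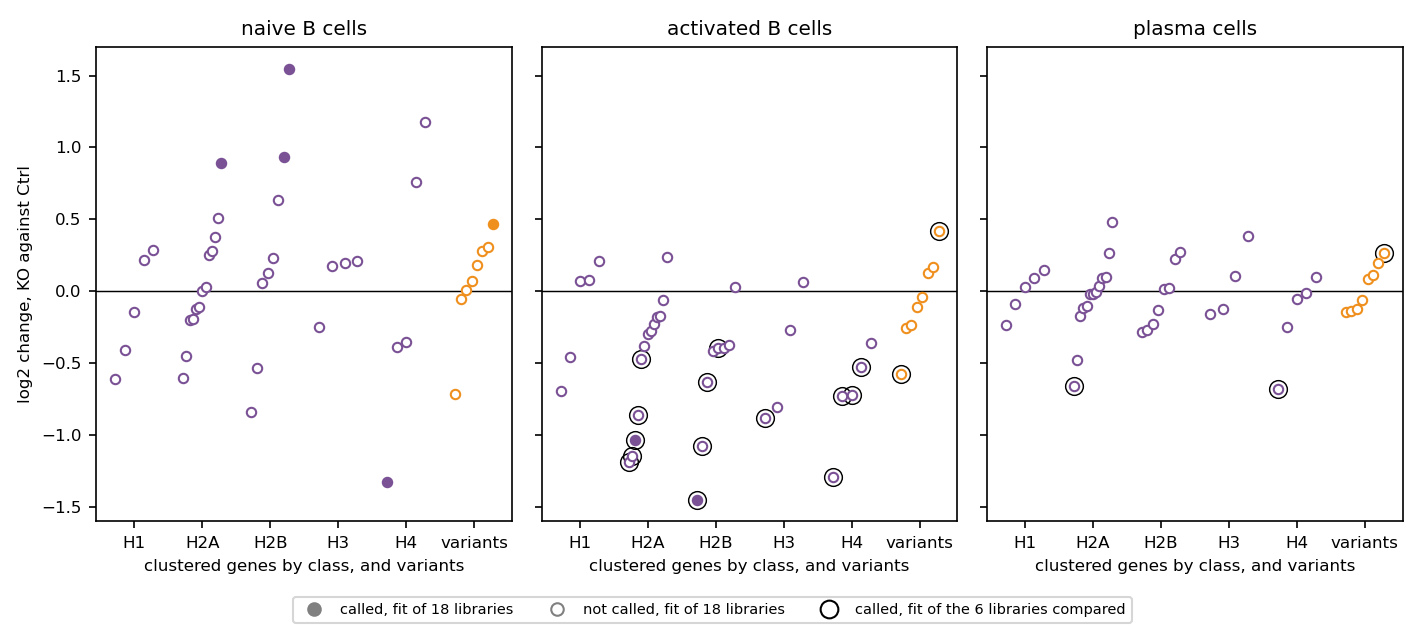
Log2 change of KO against Ctrl for each tested member in naive, activated and plasma cells (y axis), by class of clustered gene and for variants (orange). Filled points were called by limma over 18 libraries, and black rings by limma over the 6 libraries compared. Clustered H2A, H2B, H3 and H4 genes lie mostly below 0 in activated cells.

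In naive B cells, limma over 18 libraries called 3 clustered members higher and 1 lower in KO, and 1 variant higher. Over all genes 2.1% were higher and 5.14% lower. The clustered median was 0.05 against -0.09 for all genes, and the clustered sums overlapped (509 ± 68.8 and 517 ± 124). In the fit of the 6 naive libraries alone no member and no gene was called (0% higher and 0% lower of 12626). No member was called with library weights either. These calls therefore depend on how the 18 libraries were fitted together, and the reason was not tested.

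Hist1h2bc and Hist1h2ac share a divergent promoter and were both higher in naive KO. Hist1h2bc measured 16.3, 21.0 and 11.9 in Ctrl and 33.4, 23.9 and 39.0 in KO, without overlap (0.93, SE 0.20, adjusted p = 0.011). Hist1h2ac measured 4.90, 1.95 and 5.75 in Ctrl and 10.3, 8.56 and 5.90 in KO (0.89, SE 0.26, adjusted p = 0.042). Its lowest KO library lay only just above its highest Ctrl library, and the call was lost without naive Ctrl replicate 2 or KO replicate 1. The Hist1h2ac call was also lost with a pseudocount of 0.1 or 5, and with a filter at 5 RPKM. Hist2h2bb was at 0, 0.963 and 1.03 in Ctrl and 1.53, 2.42 and 10.6 in KO, and 1 KO library stood far above the other 5 naive libraries (1.55, SE 0.42, adjusted p = 0.033). That call was lost without Ctrl replicate 1 or KO replicate 3, with quantile normalization and with a pseudocount of 5. Hist1h4h was the lower member, at 5.48, 5.46 and 10.5 in Ctrl and 1.155, 5.476 and 1.199 in KO, and its groups overlapped (-1.33, SE 0.33, adjusted p = 0.023). It was not called without Ctrl replicate 3, KO replicate 1 or KO replicate 3. For comparison, the olfactory receptor medians of naive libraries ran from 1.68 to 6.96, and all 6 naive values of Hist1h2bc lay above them.

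H2afz was the variant called in naive KO, at 102.5, 101.1 and 78.4 in Ctrl and 151, 109.1 and 132.6 in KO (0.47, SE 0.11, adjusted p = 0.017). The KO libraries were all higher, and the call was lost without Ctrl replicate 3 or KO replicate 1. H3f3a was at 756.2, 732.7 and 616.7 in Ctrl and 836.1, 821.9 and 893.9 in KO (0.28, SE 0.09, adjusted p = 0.060).

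In plasma cells, limma over 18 libraries called none of the 43 members, and 2 had an unadjusted p under 0.05, as did 750 of 12782 genes. Over all genes 0.446% were higher and 0.172% lower in KO. The clustered sums were 1880 ± 226 in Ctrl and 1820 ± 91.3 in KO, and the clustered median change was -0.02. The fit of the 6 plasma libraries called 2 clustered members lower and 1 variant higher, where 3.97% of 9830 genes were lower and 4.52% higher. The lower members were Hist2h2aa2 and Hist1h4m, both also called lower in the 6 activated libraries. Hist2h2aa2 measured 71.2, 83.8 and 63.8 in Ctrl and 44, 51.3 and 42.1 in KO (adjusted p = 0.00486 over the 6 and 0.409 over 18). Hist1h4m measured 30.1, 28.8 and 29.6 in Ctrl and 19.3, 13.9 and 21.6 in KO (adjusted p = 0.0136 over the 6 and 1.000 over 18). Hist1h2bg was at 44.7, 48.8 and 39.0 in Ctrl and 36.2, 36.4 and 36.5 in KO, still separated but by less (-0.27). The variant was H2afz, at 309.2, 303.7 and 285.5 in Ctrl and 365.3, 360.9 and 355.1 in KO (adjusted p = 0.0149 over the 6 and 0.649 over 18). In plasma libraries, too, marker sums differed between Ctrl and KO, with 1320 to 1670 and 968 to 1120 for B cell markers and 1.3 to 2.17 and 8.1 to 12.1 for T cell markers. Their part in these values was not tested. H2afz had all KO libraries above all Ctrl libraries in each of the 3 cell types.

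**Figure D5:**
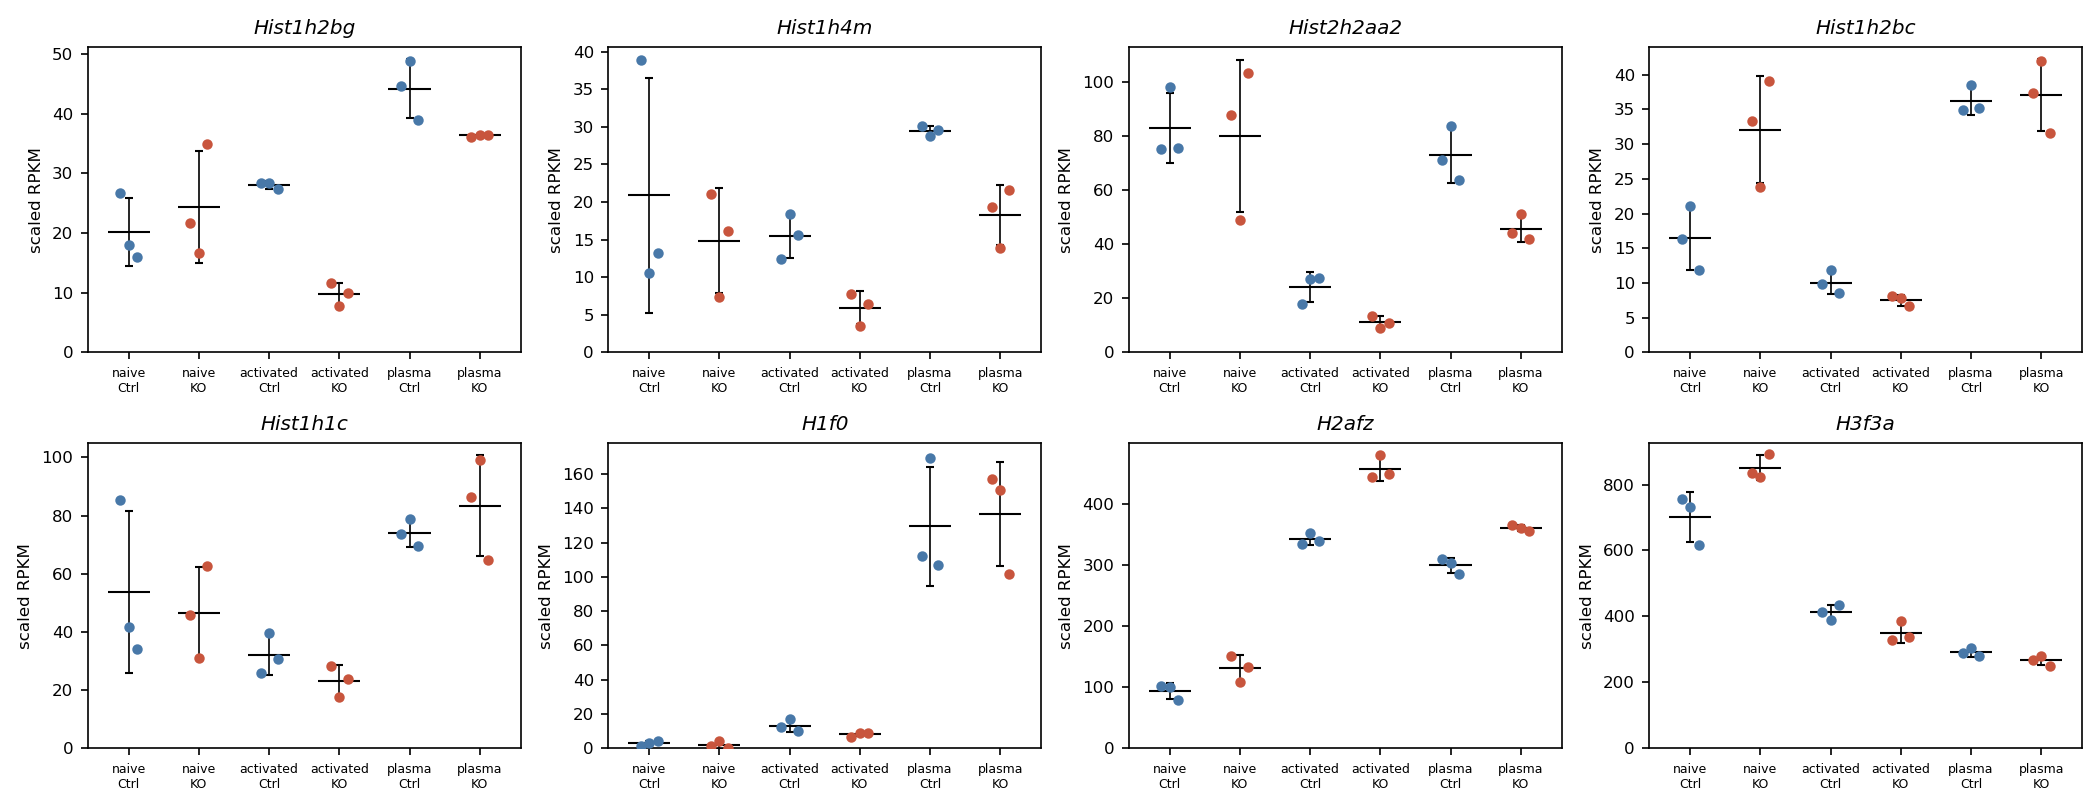
Scaled RPKM of 8 members in each library of the 6 groups, with means (lines) and SDs (bars, n = 3). Hist1h2bg is low in activated KO, Hist1h2bc and H1f0 are high in plasma cells, and H2afz is higher in KO than in Ctrl in each cell type.

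The KO effect was compared between cell types within the 18-library fit. From naive to activated cells it fell in 3 members and rose in 0, where 1.36% of all genes had a higher and 1.27% a lower effect. The difference was -1.68 for Hist1h2bg (SE 0.31, adjusted p = 0.009), -1.31 for Hist1h2bc (SE 0.28, adjusted p = 0.019) and -0.52 for H3f3a (SE 0.13, adjusted p = 0.035). None of the 3 was called in the fit of the 12 naive and activated libraries or with library weights. The call of Hist1h2bc was also lost without activated Ctrl replicate 3 or KO replicate 4. That of H3f3a was lost without any of 7 libraries in turn, with quantile normalization and with the replicate number as a block. For Hist1h2bc the naive KO libraries were higher (0.93) and the activated KO libraries lower (-0.38, groups apart, adjusted p = 0.594). Between activated and plasma cells 0 members were called, where 0.156% of genes had a higher and 0% a lower effect. There Hist1h2bg differed by 1.18 (SE 0.31, adjusted p = 0.275) and Hist1h2ag by 1.67 (SE 0.46, adjusted p = 0.344), and 3 of the 43 members had an unadjusted p under 0.05, as did 414 of 12782 genes. In the limma fit of the 12 activated and plasma libraries these 2 members alone were called. Hist1h2bg differed by 1.214 (adjusted p = 0.000562) and Hist1h2ag by 1.704 (adjusted p = 0.0208). Of 10391 genes in that fit, 2.19% had a higher and 0.472% a lower effect.

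Genes that make, process and place histones were followed on 3 lists. Over all genes 19% rose and 39.4% fell from naive to activated Ctrl cells, 16.1% rose and 16.8% fell from activated to plasma Ctrl cells, and 8.22% were higher and 9.25% lower in KO over the 6 activated libraries. Of 32 S phase genes, 30 rose and 1 fell from naive to activated Ctrl cells, with a median of 2.42. Cdc6, which loads the replicative helicase, went from 0.517 ± 0.275 to 25.1 ± 1.19, and Mcm6, a helicase subunit, from 21 ± 0.532 to 129 ± 11.1. From activated to plasma cells 9 fell and 3 rose, among them Uhrf1 (-1.44), which recruits DNA methylation to new DNA. In activated KO cells the S phase list had a median of 0.28, and none was called over 18 libraries. In the fit of the 6 activated libraries 16 of 32 were called higher and 0 lower, against 8.22% and 9.25% of all genes. There Mcm6 had a mean of 129 ± 11.1 in Ctrl and 162 ± 7.63 in KO, and Uhrf1 of 129 ± 6.01 and 176 ± 16.7. Lig1, the DNA ligase of lagging strands, was the 1 gene of the 32 called in naive KO over 18 libraries. It was lower (-1.04, adjusted p = 0.012), as were 5.14% of all genes. The fit of the 6 naive libraries alone called no gene. Over 18 libraries the KO effect was higher in activated than in naive cells for 3 of the 32 and lower for 0. Over all genes the shares were 1.36% and 1.27%. Lig1 was among the 3 (1.504, adjusted p = 0.019).

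Of 19 genes for histone mRNA synthesis and 3′ processing, 6 rose and 3 fell from naive to activated Ctrl cells, and 2 rose and 6 fell from activated to plasma cells. Slbp, which binds the stem-loop, measured 51.5 ± 7.73 in naive, 142 ± 9.29 in activated and 107 ± 6.23 in plasma Ctrl (log2 changes 1.45 and -0.40, adjusted p = 6.6e-09 and 0.007). In activated KO Slbp was at 156 ± 7.17. Eri1, an exonuclease that trims the stem-loop, followed the same order (14 ± 0.238, 36.4 ± 3.22 and 26.5 ± 2.56). None of the 19 was called in a KO contrast over 18 libraries, while over the 6 activated libraries 3 were higher and 1 lower, against 8.22% and 9.25% of all genes.

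Of 29 histone chaperones and exchange factors, 16 rose and 5 fell on activation, and 2 rose and 10 fell from activated to plasma cells. Asf1b, a chaperone of new H3 and H4, went from 8.4 ± 3.68 to 116 ± 2.94 and then 74.8 ± 5.49. Nap1l1, a chaperone of H2A and H2B, went from 32.9 ± 1.36 to 60.4 ± 3.02 and then 18.6 ± 1.44. Rbbp7, a subunit of histone-binding complexes, was the only one of the 29 called in a KO contrast over 18 libraries (naive cells, 0.42, SE 0.12, adjusted p = 0.046). In that contrast 2.1% of all genes were higher. The fit of the 6 naive libraries alone called no gene. Over the 6 activated libraries 8 of the 29 were higher and 0 lower, against 8.22% and 9.25% of all genes.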

How the data were processed

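RNA-seq of 18 mouse libraries was used as the RPKM table of 12960 detected genes that the authors deposited. Reads were aligned with STAR to mm10, per the submitters' processing notes, and the counting program, gene models and lengths are not stated there. No per-sample column was left unused (0). RPKM corrects for gene length and total reads, and keeps no read counts, so depth was estimated from the steps between low values.

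RPKM was scaled by median of ratios over 8012 genes above 1 RPKM in all libraries. Genes with a mean of at least 1 in 1 group (12782) were tested on log2(RPKM + 1), which understates changes of low genes, with limma 3.58.1 (R 4.3.3; lmFit, then eBayes with a trend) on all 18 libraries with no block. Calls had a Benjamini-Hochberg adjusted p under 0.05, and the difference of KO effects was an interaction contrast. The fit was also run on simulated data, drawn with 1 spread per gene for all groups. That run cannot check the unequal spread between naive and other libraries. Sequences were read with Python 3.11.15 from GENCODE M21 and RefSeq tables.

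The members and lists were chosen with earlier results of these data known. Genes named are all variants, the 2 most abundant members of each clustered class, every member called in a KO contrast or interaction, up to 4 clustered members per direction in each stage contrast, and up to 3 list genes per contrast. Others were picked after their values were seen. Alternatives were other scalings, pseudocounts and filters, library weights, the replicate number as a block, fits of fewer libraries and leaving out each library. Leaving out the naive libraries, or members with shared sequence, was added after seeing the data. The name of the Cre allele is not reported here.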

Additional observations from a re-analysis of the deposited data

Results flagged for a closer look

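The KO effect of 3 members differed between naive and activated B cells by an interaction contrast in limma over all 18 libraries. The difference, activated minus naive on the log2 scale, was -1.683 for Hist1h2bg (SE 0.308, adjusted p = 0.0087), -1.307 for Hist1h2bc (SE 0.282, adjusted p = 0.019) and -0.516 for H3f3a (SE 0.125, adjusted p = 0.035). Over 21 alternatives the adjusted p ran from 0.00136 to 0.0685 for Hist1h2bg, from 0.0039 to 0.138 for Hist1h2bc and from 0.0182 to 0.286 for H3f3a.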

How the results depend on the processing

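No result changed direction past its threshold under any alternative run. Counts of members called, higher then lower, moved as follows. Shares over all genes were taken for the fit of all 18 libraries and for fits of only the libraries compared. They were not taken for the other settings. Library weights gave 0 and 0 in naive KO, 2 and 13 in activated KO, 2 and 3 in plasma KO, 17 higher from activated to plasma Ctrl cells, 0 lower for the difference of KO effects between naive and activated cells, and 5 higher for that between activated and plasma cells. Fits of only the libraries compared gave 0 and 0, 1 and 15, 1 and 2, 17, 0 and 2 in the same order. Without the naive libraries (chosen after seeing the data) they gave 1 and 19 in activated KO, 1 and 1 in plasma KO, 16 higher from activated to plasma Ctrl cells and 2 higher for the last difference. Leaving out members with shared 50-base stretches (also chosen after seeing the data), which tests fewer genes, gave 0 and 0 in naive KO, 0 lower in activated KO, 7 and 4 from naive to activated Ctrl cells, 3 higher from activated to plasma, 7 higher from naive to plasma, and 0 lower for the first difference. Quantile normalization and a filter at 5 RPKM each gave 1 higher in activated KO, and a pseudocount of 5 gave 2 higher in naive KO. For the other settings the cause was not tested. Deposited RPKM shifted the median of all genes by -0.111 from activated to plasma and -0.139 from naive to plasma Ctrl cells, and quantile normalization by 0.235 from naive to activated, 0.311 from naive to plasma and -0.102 for the first difference.

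Clustered sums without near-identical members were, for Ctrl then KO, 342.6 and 323.1 at the naive stage, 626.6 and 535.3 at the activated stage and 882.2 and 856.3 at the plasma stage. Quantile normalization gave a clustered sum of 1704 in plasma KO and variant sums of 1694, 1832, 1206 and 1289 in activated Ctrl, activated KO, plasma Ctrl and plasma KO, and deposited RPKM gave variant sums of 1687 and 1783 in activated Ctrl and KO. Leaving out each library in turn gave 2 to 6 higher and 0 to 3 lower in naive KO, 1 (without activated Ctrl replicate 3) to 3 (without activated KO replicate 1) lower in activated KO, and 0 to 1 higher and 1 to 5 lower for the first difference. Clustered sums then ran from 469.7 to 533.5 in naive Ctrl, 471.4 to 587.5 in naive KO, 1391 to 1557 in activated Ctrl, 1160 to 1283 in activated KO, 1808 to 2006 in plasma Ctrl and 1772 to 1855 in plasma KO. Variant sums ran from 1761 to 1924, 2002 to 2088, 1577 to 1589, 1613 to 1717, 1354 to 1485 and 1393 to 1478 in the same order.

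The deviations of same-numbered Ctrl and KO libraries had correlations of -0.188 to -0.000884 in naive, -0.212 to 0.0701 in activated and 0.0681 to 0.312 in plasma cells. Between activated and plasma Ctrl libraries they were -0.00757, 0.122 and 0.154. Since no set had every pair above 0.1, the numbers were not taken as pairing. With the replicate number as a block, 4 and 1 members were called in naive KO, 0 and 3 in activated KO and 0 and 0 in plasma KO, and 2 lower for the first difference, where H3f3a was not called with the block, nor was H2afv from activated to plasma Ctrl cells. Low depth of the naive libraries limits every comparison with naive cells.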
